A study of Mus musculus with 6 samples.

Results

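After voluntary wheel running (VWR), counts listed under the MHC class I heavy chain gene H2-L were near 0 in the soleus (Sol) of WT mice. They were low but above 0 in all LSD1-mKO mice, while the other genes of the class I pathway were measured in both genotypes at overlapping levels. Whether MHC haplotype, the assignment of reads or the loss of LSD1 lay behind the H2-L counts was not tested. The genes described here are 10 of the 24411 listed by symbol in the count table: the heavy chains H2-L, H2-K1, H2-D1, H2-Q4, H2-Q6, H2-Q7 and H2-T23, the light chain B2m, and the peptide transporter subunits Tap1 and Tap2. They were chosen by the levels of H2-L in these same libraries, near 0 in WT and above 0 in LSD1-mKO, so the values of this contrast are a description and carry no test.

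Poly(A) RNA from the Sol of 3 WT and 3 LSD1-mKO mice was read as 75-base single-end reads, with 1 library from each animal. Both groups carried floxed Lsd1 (Kdm1a) alleles, from the line B6.129-Kdm1atm1.1Sho/J, on a background that the labels give as C57BL/6. They were male and 8 weeks old when wheel access began, and kept the wheel for 38 days. Both received tamoxifen at 75 mg/kg for 5 days once a familiarization of 3 days had ended, and running was recorded for 30 days. LSD1-mKO mice also carried CreERT2 under the human ACTA1 promoter, which is active in muscle fibers, from the line Tg(ACTA1-cre/Esr1*)2Kesr/J. WT mice lacked it. Because the transgene and the loss of LSD1 always occurred together, they cannot be told apart here, and no sedentary mice were included. The sources used here give neither the MHC haplotype of the mice nor that of the animals in which the floxed allele and the transgene were made.

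Class I molecules carry peptides from inside the cell to its surface, where cytotoxic T cells and natural killer cells inspect them. A heavy chain pairs with beta-2 microglobulin, the B2m product, and is loaded with peptides that the TAP1 and TAP2 transporter brings into the endoplasmic reticulum. The genes are transcribed in nearly all nucleated cells and respond to interferons, and in healthy skeletal muscle they are low in the fibers and higher in endothelial cells and leukocytes. The heavy chains differ between inbred strains in number as well as in sequence: mice of the d haplotype, such as BALB/c, carry an L gene beside D, whereas the b haplotype of C57BL/6 carries D and no L gene.

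Totals ranged from 8940206 to 13798059 estimated counts per library. Levels are given as counts per 1000000 after TMM scaling (CPM). Kdm1a was at 40.5, 38.2 and 33.6 CPM in WT replicates 1 to 3 and at 14.6, 16.6 and 16.6 CPM in LSD1-mKO replicates 1 to 3, a log2 fold change of -1.23 ± 0.11 (SE) with an adjusted p of 0.0160 in edgeR's quasi-likelihood test. With any of 4 mice left out in turn, or with the replicate number as a block, that adjusted p rose above 0.05, up to 0.299, while the log2 fold change stayed between -1.30 and -1.17. Muscle fiber markers summed to between 107385 and 141948 CPM over the 6 libraries, and Acta1, the actin of skeletal muscle, ran from 32177 to 40894 CPM. Among leukocyte markers, the T and B cell genes Cd3e, Cd8a, Cd4 and Cd79a were each at or below 0.540 CPM in every library. In whole muscle, fewer cells of a type and less RNA per cell cannot be told apart.

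The regulatory sequences of the class I genes were compared before their levels. Promoters were available for 8 of the 10 genes, H2-L and Tap2 being the exceptions, from RefSeq on GRCm38.p6. Each window covers the 250 bases before the RefSeq start site, of which H2-K1 has 2 listed and 1 is shown. The sequences of the 2 most abundant heavy chains, of the light chain and of the nonclassical heavy chain H2-T23 are printed 5′ to 3′, with matches in capitals, to show the block of motifs that the heavy chains share and how H2-T23 and B2m depart from it.
H2-K1, chr17:34000348-34000597, minus strand: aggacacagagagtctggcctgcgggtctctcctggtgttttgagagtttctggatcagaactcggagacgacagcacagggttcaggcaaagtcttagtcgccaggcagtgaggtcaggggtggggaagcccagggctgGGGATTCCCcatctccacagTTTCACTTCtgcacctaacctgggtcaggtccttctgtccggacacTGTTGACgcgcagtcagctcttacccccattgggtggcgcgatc
H2-D1, chr17:35262844-35263093, plus strand: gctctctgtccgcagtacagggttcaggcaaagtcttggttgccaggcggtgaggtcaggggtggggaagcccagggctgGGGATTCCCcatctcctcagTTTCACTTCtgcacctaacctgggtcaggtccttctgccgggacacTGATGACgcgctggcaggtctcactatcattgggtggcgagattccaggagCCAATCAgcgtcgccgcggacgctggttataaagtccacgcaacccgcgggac
H2-T23, chr17:36032702-36032951, minus strand: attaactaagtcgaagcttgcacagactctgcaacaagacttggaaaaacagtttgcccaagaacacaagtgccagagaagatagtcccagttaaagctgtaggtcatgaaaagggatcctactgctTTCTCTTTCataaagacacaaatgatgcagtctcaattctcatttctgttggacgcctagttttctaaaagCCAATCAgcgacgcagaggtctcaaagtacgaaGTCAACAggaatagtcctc
B2m, chr2:122147437-122147686, plus strand: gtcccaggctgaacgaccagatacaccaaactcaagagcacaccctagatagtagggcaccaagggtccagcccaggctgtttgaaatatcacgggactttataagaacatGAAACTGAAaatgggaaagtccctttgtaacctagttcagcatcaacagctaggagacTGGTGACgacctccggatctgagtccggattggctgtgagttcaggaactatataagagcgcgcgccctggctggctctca

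The capitals mark enhancer A (GGGATTCCC, the form bound by NF-kB factors), an interferon response element in the form seen in class I genes (TTTCACTTC), the general form of that element (TTCNNTTTC), the X2 box (TGNTGAC) and a CCAAT box (CCAATCA). Motifs were sought on both strands, and those printed do not overlap. They were chosen after the sequences had been read. Enhancer A was found in H2-K1, H2-D1, H2-Q6 and H2-Q7, and in 0.301% of all 32851 promoters of the same build. The class I form of the interferon element was found in these 4 and in H2-Q4, against 0.402% of all promoters. H2-T23 and B2m held the general form instead, which 7.13% of promoters held. The letters of the X2 box were present in all available promoters but that of Tap1, against 11.7% overall. In H2-T23 they lay on the opposite strand and after the CCAAT box. In H2-D1, H2-Q4, H2-Q6 and H2-Q7 they lay on the printed strand and before it. The CCAAT box was present in H2-D1, H2-Q4, H2-Q6, H2-Q7, H2-T23 and Tap1, against 7.23% overall. The H2-K1 window ended before the stretch that would line up with the CCAAT box of H2-D1, so that stretch was not searched. A match is only a run of letters in this window and says nothing about binding.

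H2-L had estimated counts of 0, 0 and 0.35 in WT replicates 1 to 3 and of 39.47, 31.34 and 31.46 in LSD1-mKO replicates 1 to 3. This was 0, 0 and 0.0311 CPM against 2.92, 2.27 and 2.93 CPM, so that every LSD1-mKO mouse lay above every WT mouse. The means were 0.0104 ± 0.0180 and 2.71 ± 0.38 CPM (SD, n = 3 each). After rounding, WT held 0 counts in all and LSD1-mKO 101. The LSD1-mKO mean was 27.7-fold a floor of 3 counts over the WT group, which equals 0.0979 CPM. Its LSD1-mKO side is a point estimate, so this ratio is no lower bound. With 3 counts taken as the limit, a count of 0 allowed up to 0.362, 0.270 and 0.267 CPM in the 3 WT libraries. Such limits cover counting error only, as reads copied by PCR are not independent molecules.

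H2-L was a minor entry even where it had counts. Of the counts listed under H2-D1 or H2-L, H2-L took 2.01% in LSD1-mKO replicate 1 (exact Clopper-Pearson 95% interval 1.43% to 2.74%), 1.71% in replicate 2 (1.17% to 2.42%) and 1.77% in replicate 3 (1.21% to 2.51%). The 3 intervals overlapped. All intervals here use rounded estimated counts and cover counting error only, not how shared reads were divided between entries. In WT replicates 1 to 3 the share was 0 of 989, 0 of 2288 and 0 of 2394 counts. The upper Clopper-Pearson limits were 0.372%, 0.161% and 0.154%, and a limit of 3 counts gave 0.303%, 0.131% and 0.125%. Adding the counts of H2-L to those of H2-D1 left the log2 fold change of the sum at -0.30 ± 0.20 (SE), against -0.33 ± 0.20 for H2-D1 alone.

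**Figure D1:**
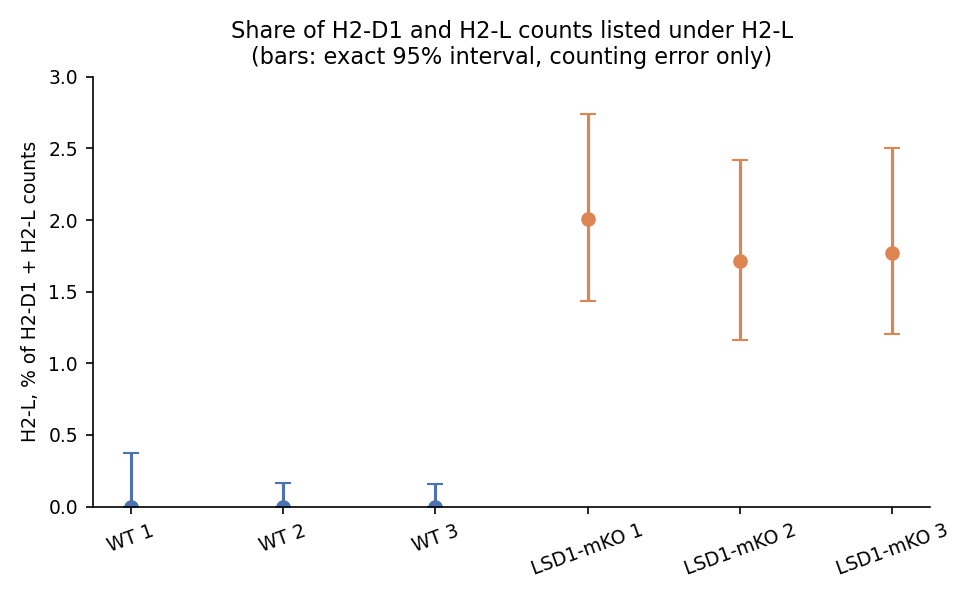
H2-L as a percentage of the counts listed under H2-D1 and H2-L (y axis) in each of the 6 libraries (x axis); points are the shares and bars the exact 95% binomial intervals, which cover counting error only. The LSD1-mKO shares sit between 1.71% and 2.01%, and no WT interval reaches above 0.372%.

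Few genes were near absent in 1 genotype and counted in every mouse of the other. With at most 1 count in every WT library and at least 5 in every LSD1-mKO library there were 4 genes, H2-L, Ahrr, Apol8 and Opn1sw, and with the reverse pattern 0. These cutoffs and names were chosen after the values were seen. The counts of the other 3 in LSD1-mKO replicates 1 to 3 were 13, 5 and 5 for Ahrr, 7, 10 and 13 for Apol8, and 5, 6 and 5 for Opn1sw. In WT replicates 1 to 3 their counts were 1, 1 and 1 for Ahrr, 0, 1 and 0 for Apol8, and 0, 1 and 1 for Opn1sw. H2-L was the most abundant of the 4, at no fewer than 31.34 counts per LSD1-mKO library.

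Among 12827 other tested genes, those whose log2 CPM most resembled H2-L over the 6 libraries were Inpp5j, Mical3, Esr1, Twsg1 and Rnf157, with Pearson's r of 0.998, 0.990, 0.989, 0.984 and 0.983. These correlations describe 6 points in 2 genotype clusters and carry no test. Inpp5j, an inositol phosphatase gene, was at 16.2, 15.6 and 16.3 CPM in WT replicates 1 to 3 and at 28.1, 26.5 and 28.7 CPM in LSD1-mKO, with an adjusted p of 0.0756 in edgeR, so it did not pass the threshold. Esr1, which encodes the estrogen receptor alpha, was at 23.99, 24.4 and 18.6 CPM in WT and at 301, 461 and 428 CPM in LSD1-mKO, with a log2 fold change of 4.15 ± 0.20 (SE) and an adjusted p of 1.9e-04 in edgeR. CreERT2 itself contains the ligand-binding domain of the human estrogen receptor, and whether transgene reads were counted under Esr1 was not tested.

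The remaining class I heavy chains were present in both genotypes. H2-K1, a classical heavy chain, was at 83.0, 142 and 158 CPM in WT replicates 1 to 3 and at 96.7, 97.0 and 123 CPM in LSD1-mKO replicates 1 to 3. H2-D1, the other classical heavy chain of C57BL/6, was at 119, 206 and 213 CPM in WT and at 141, 129 and 160 CPM in LSD1-mKO. For both genes WT replicates 2 and 3 were the highest of the 6 libraries and WT replicate 1 the lowest, so the groups overlapped. The log2 fold changes of LSD1-mKO over WT were -0.28 ± 0.22 (SE) for H2-K1 and -0.33 ± 0.20 for H2-D1.

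H2-Q4, a nonclassical heavy chain of the Q region, was at 18.3, 28.6 and 36.6 CPM in WT and at 17.6, 19.1 and 29.1 CPM in LSD1-mKO. H2-Q7, which encodes the Qa-2 antigen, was at 1.69, 4.41 and 5.89 CPM in WT and at 2.08, 1.75 and 5.45 CPM in LSD1-mKO. H2-T23, which encodes Qa-1, a ligand of the NKG2A receptor of natural killer cells, was at 18.0, 26.3 and 29.1 CPM in WT and at 18.5, 19.6 and 19.1 CPM in LSD1-mKO. In all 3 genes the groups overlapped. H2-T23 stood out for its narrow range in LSD1-mKO, with an SD of 0.530 CPM against 5.77 CPM in WT. Their log2 fold changes were -0.36 ± 0.27, -0.44 ± 0.52 and -0.37 ± 0.16 (SE).

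H2-Q6, a close relative of H2-Q7, was the least regular gene, at 2.34, 5.60 and 0 CPM in WT and at 1.84, 0.499 and 6.26 CPM in LSD1-mKO, with a log2 fold change of 0.07 ± 1.06 (SE). Its low libraries were those in which H2-Q8, which belongs to the same subfamily, was listed above 0. H2-Q6 had estimated counts of 19.41, 62.16 and 0 in WT and H2-Q8 of 0, 0 and 113.97, while in LSD1-mKO H2-Q6 had 24.87, 6.89 and 67.26 and H2-Q8 had 0, 31.22 and 0. Summed, they gave 19.41, 62.16 and 113.97 in WT against 24.87, 38.11 and 67.26 in LSD1-mKO, and the log2 fold change turned to -0.79 ± 0.56 (SE). This sum was formed after the values had been seen.

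B2m, the light chain, was at 112, 184 and 202 CPM in WT and at 148, 128 and 177 CPM in LSD1-mKO. Tap1 was at 4.94, 10.9 and 10.31 CPM in WT and at 7.55, 5.07 and 9.13 CPM in LSD1-mKO. Tap2 was at 17.8, 26.2 and 23.5 CPM in WT and at 18.9, 20.3 and 22.4 CPM in LSD1-mKO. In these genes too WT replicate 1 was the lowest library and the LSD1-mKO values lay inside the WT range. Their log2 fold changes were -0.14 ± 0.21, -0.29 ± 0.32 and -0.14 ± 0.15 (SE).

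**Figure D2:**
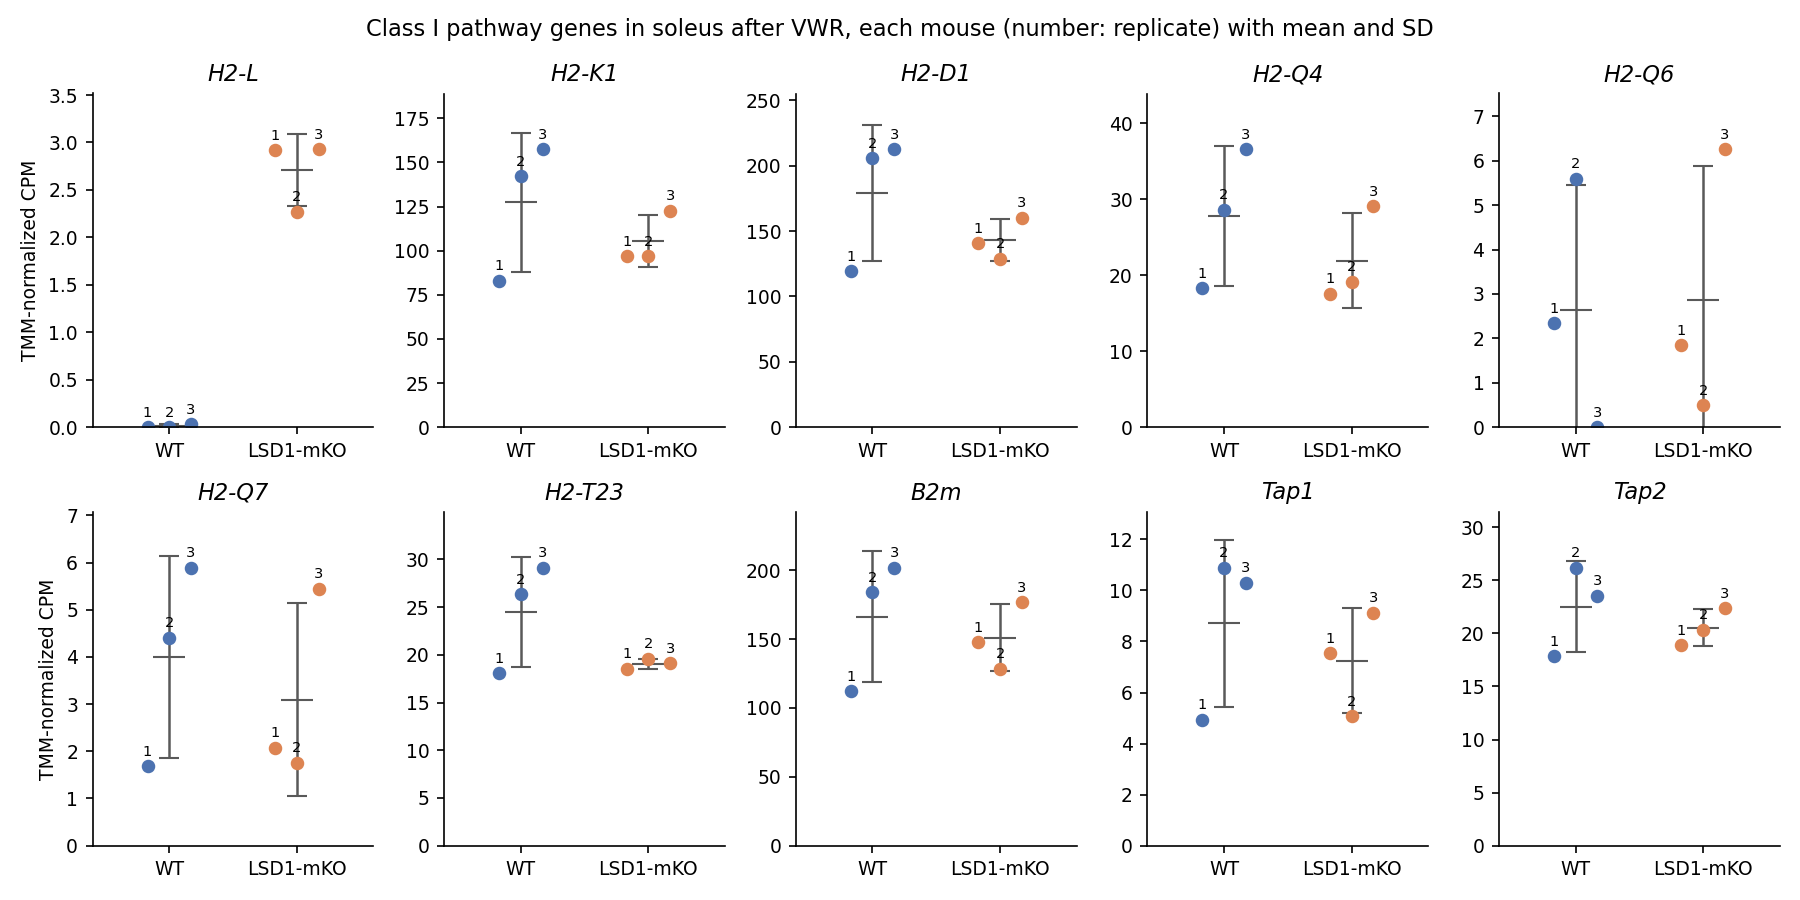
TMM-normalized CPM (y axis, linear and starting at 0) of the 10 class I pathway genes in each WT and LSD1-mKO mouse (x axis); points are mice, numbered by replicate, and bars are the mean and SD of 3 mice. H2-L separates the genotypes, at 2.27 to 2.93 CPM in LSD1-mKO, while in the other 9 genes the groups overlap.

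Of the 10 genes, H2-L alone had groups that did not overlap, all LSD1-mKO values being above all WT values, as for 6.62% of the 12828 genes tested. At an adjusted p under 0.05 edgeR called 0 of the 10, against 0.0156% of all genes. At an unadjusted p under 0.05 it called 1 higher, H2-L, against 3.52% of all genes, and 0 lower, against 2.88%. H2-L alone was called at an adjusted p under 0.05 by DESeq2, which called 0.327% of all genes, by limma voom, which called 0.0234%, and by edgeR without a filter on low counts, which called 0.0584%. Since these libraries led to the choice of genes, nothing is read from these counts. For the other 9 the median log2 fold change was -0.29 and 8 of the 9 were below 0, beside a median of -0.02 and 7027 of 12828 below 0 over all genes tested.

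WT replicate 1 decided much of the overlap. Of the 9 genes other than H2-L, 7 had their lowest value of all 6 libraries in that mouse, and 6 had their highest in WT replicate 3. In LSD1-mKO replicates 1 to 3, 8, 8 and 6 of the 9 genes lay below both WT replicate 2 and WT replicate 3. Without WT replicate 1, the 9 genes were all below 0 and their median was -0.54. The number with an unadjusted p under 0.05 went from 0 to 7 of the 9, all lower, against 7.98% of the 13079 genes then tested, and 0 passed the adjusted threshold. Nothing is read from this count either. The values of H2-K1 and H2-D1 were then -0.51 ± 0.12 and -0.55 ± 0.10 (SE). Without WT replicate 3, in contrast, the median was -0.11.

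**Figure D3:**
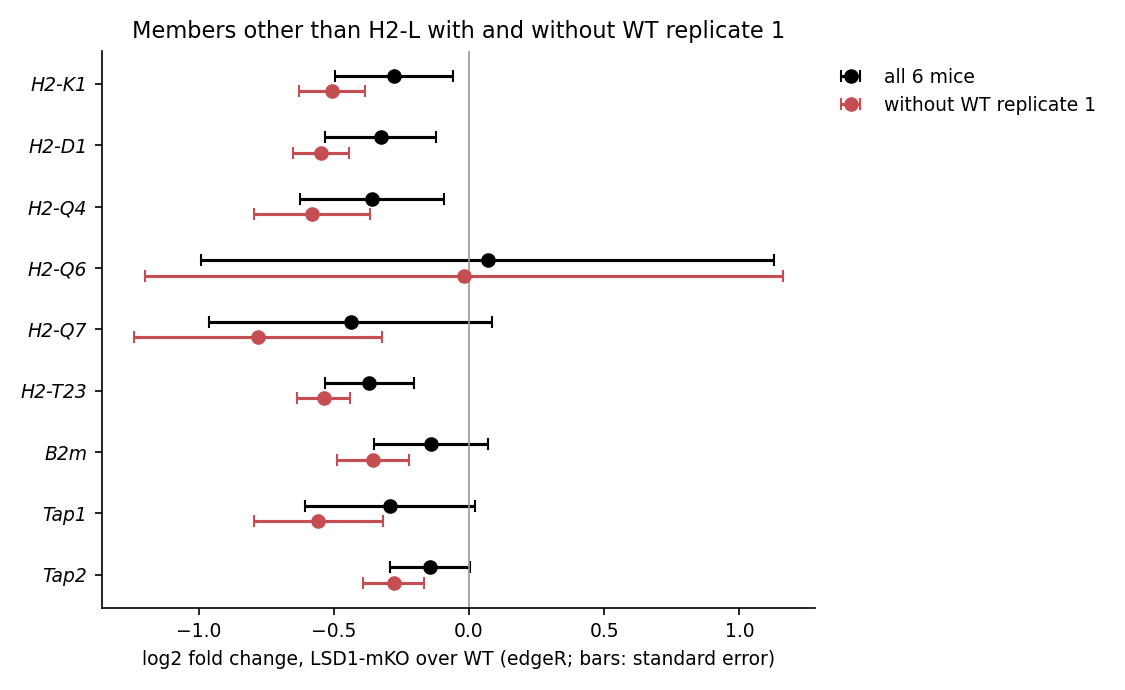
Log2 fold change of LSD1-mKO over WT (x axis) for the 9 genes other than H2-L (y axis), with all 6 mice in black and without WT replicate 1 in red; points are edgeR estimates and bars their SE. Leaving out that mouse moves each of the 9 estimates to a lower value, and the median from -0.29 to -0.54.

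Levels per length were compared between the class I genes. Per 1000 bases of the longest coding transcript, and over all 6 libraries, B2m was the highest at 184 ± 40 CPM (SD), followed by H2-D1 at 76.7 ± 18.9 and H2-K1 at 71.96 ± 18.07. B2m exceeded H2-D1, and H2-D1 exceeded H2-K1, in 6 of 6 libraries, although the means of the 2 heavy chains differed by less than their SD. H2-T23 followed at 14.8 ± 3.2 and H2-Q4 at 13.9 ± 4.3 CPM per 1000 bases, an order that held in 4 of 6 libraries. Tap2 was at 6.25 ± 0.91 and Tap1 at 2.70 ± 0.87 CPM per 1000 bases, with Tap2 the higher in 6 of 6. The lowest were H2-Q7 at 2.33 ± 1.27 and H2-Q6 at 1.32 ± 1.25 CPM per 1000 bases, and Tap1 and H2-Q7 differed by less than their SD. H2-L had no transcript in the annotation used here, so it has no value per length.

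Stretches as long as a read were shared between heavy chains to unequal extents. In GENCODE vM21, 21.5% of the 75-base windows of the H2-Q7 transcript occurred unchanged in another H2 gene, as did 15.5% for H2-Q6, 9.44% for H2-T23, 6.71% for H2-D1, 4.01% for H2-Q4 and 1.55% for H2-K1. With all other genes counted, the share was 21.7% for H2-Q4, most of it with genes outside the H2 family such as Gm11131, and 21.7% for H2-Q7, 21.1% for H2-Q6, 13.1% for H2-T23, 7.10% for H2-D1 and 1.55% for H2-K1. B2m shared 0 windows. Tap1 shared 4.79%, all with its neighbour Psmb9, and Tap2 8.97%, mostly with Gm15821. H2-Q7 shared most with H2-Q6, at 13.6% of its windows. H2-L, H2-Q8, H2-Q9 and H2-T9 had no entry in this annotation, so windows shared with them were not counted. Sharing of H2-D1 with H2-L, or of H2-Q6 with H2-Q8, was therefore not measured.

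The estimated counts of the heavy chains were often not whole. Values that were not whole numbers occurred in 6 of 6 libraries for H2-K1, H2-D1, H2-Q4, H2-Q7 and H2-T23, in 5 for H2-Q6 and in 4 for H2-L. They occurred in 0 libraries for B2m, Tap1 and Tap2. Over all genes and libraries, genes without counts included, 9.33% of values were not whole. Of the genes tested, 24.3% had such a value in at least 1 library. The sum of 17 class I entries with such values, the 7 heavy chains described here included, came within 0.05 of a whole number in 2 of 6 libraries. With Gm7030 and A930015D03Rik added, the sum did so in 5 of 6 libraries. H2-D1 and H2-L alone did so in 1 of 6, WT replicate 1, where H2-L had a count of 0. The entries summed were chosen after the counts had been seen, so nothing is read from these sums. The LSD1-mKO counts of H2-L, at 39.47, 31.34 and 31.46, were themselves such estimates. To which entry a read of a shared stretch belongs was not tested.

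Because single entries are uncertain in this way, the 17 class I entries were also summed. The sum was 262, 448 and 493 CPM in WT replicates 1 to 3 and 306, 297 and 375 CPM in LSD1-mKO replicates 1 to 3, so the groups overlapped. Its log2 fold change was -0.30 ± 0.22 (SE) with an adjusted p of 0.817 in edgeR. Without WT replicate 1 it was -0.53 ± 0.12 with an adjusted p of 0.174, and without WT replicate 3 it was -0.12 ± 0.22. The set was chosen after the counts had been seen and includes H2-K1 and H2-D1, which made up most of it.

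The rest of the antigen presentation pathway was described by lists. Of 12 other class I and class I-like genes tested, 0 passed the adjusted threshold in edgeR and 0 had an unadjusted p under 0.05. Their median log2 fold change was -0.15, from -0.42 to -0.01 with each mouse left out in turn, and 10 of 12 were below 0. Without WT replicate 1, H2-M3, H2-Q9 and H2-T9 had an unadjusted p under 0.05, all lower. H2-T9 was at -0.28 ± 0.27 (SE). Hfe, which regulates iron uptake, was at 0.22 ± 0.12, and Mr1, which presents vitamin metabolites to MAIT cells, at 0.17 ± 0.11.

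For peptide supply and loading, 0 of 12 genes tested passed the adjusted threshold, the median was -0.12, and 7 of 12 were below 0. The 2 subunits of the PA28 proteasome activator had estimates of opposite sign. Psme1 was at 50.2, 51.2 and 48.2 CPM in WT and 54.6, 58.6 and 68.2 in LSD1-mKO, and Psme2 at 32.0, 33.0 and 32.4 in WT and 24.3, 28.6 and 25.95 in LSD1-mKO. In neither gene did the groups overlap, as for 12.7% of all genes tested. Their log2 fold changes were 0.28 ± 0.10 and -0.30 ± 0.09 (SE), with adjusted p of 0.717 and 0.625 in edgeR, and they were the 2 genes of the list with an unadjusted p under 0.05, against 3.52% of all genes higher and 2.88% lower. The immunoproteasome subunit Psmb8 was at -0.23 ± 0.24. Without WT replicate 1, Psmb8 and Psme2 were lower and Psme1 higher in edgeR at an unadjusted p under 0.05. Over all genes the shares were then 7.98% lower and 6.43% higher, and 0 of the list passed the adjusted threshold.

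Regulators of class I transcription and interferon signalling gave 0 calls of 23 genes tested, at either threshold, with a median of -0.03, which turned to 0.03 without WT replicate 2. Nfyb, a subunit of the factor that binds CCAAT boxes, was at 0.19 ± 0.11 (SE), Irf2, which binds interferon response elements, at -0.22 ± 0.14, and Stat2, which relays type I interferon signals, at -0.17 ± 0.19. Without WT replicate 1, Nfyb was higher and Irf8 lower in edgeR at an unadjusted p under 0.05. Over all genes the shares were then 6.43% higher and 7.98% lower, and 0 of the list passed the adjusted threshold. With all 6 mice, interferon-stimulated genes likewise gave 0 calls of 24 at either threshold, with a median of 0.08. In this list 14 of 24 were above 0, but this direction rested on single mice. The median was -0.11 with 6 of 24 above 0 without WT replicate 1, and -0.14 with 7 of 24 above 0 without LSD1-mKO replicate 3. Without WT replicate 1, Gbp6 was higher and Bst2, Gbp3, Ifit3 and Oasl2 were lower at an unadjusted p under 0.05. Gbp3, a guanylate-binding protein gene, was at -0.40 ± 0.23, Bst2, an antiviral membrane protein gene, at -0.32 ± 0.21 and Tgtp1, an interferon-induced GTPase gene, at -0.30 ± 0.73.

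Class II genes and markers of other cell types were set beside the class I sum. The 11 class II genes summed to 117, 419 and 340 CPM in WT replicates 1 to 3 and to 188, 125 and 189 CPM in LSD1-mKO. The 14 leukocyte markers summed to 92.9, 302 and 236 CPM in WT and to 189, 97.0 and 136 CPM in LSD1-mKO. The 8 fibroblast markers summed to 1395, 3693 and 4614 CPM in WT and to 3004, 1451 and 1613 CPM in LSD1-mKO. In all 3 lists, as in the class I sum, WT replicate 1 was the lowest library and WT replicates 2 and 3 were the highest.

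Endothelial markers spanned 708 to 962 CPM in WT and 706 to 853 CPM in LSD1-mKO, again with WT replicates 2 and 3 among the high libraries. By edgeR 0 genes of these 4 lists passed the adjusted threshold, and 1 class II gene, H2-DMa at -0.88 ± 0.29 (SE), and 1 endothelial gene, Vwf, had an unadjusted p under 0.05, against 2.88% of all genes lower. Without WT replicate 1, these became 8 of 8 class II, 6 of 8 leukocyte and 7 of 8 fibroblast genes and the endothelial genes Cdh5, Pecam1 and Vwf, all lower, against 7.98% of all genes, while 0 passed the adjusted threshold. Without WT replicate 2, and likewise without WT replicate 3, 0 leukocyte and 0 fibroblast genes had an unadjusted p under 0.05 in edgeR. With each mouse left out in turn, the median ran from -1.15 to -0.48 for class II genes and from -0.99 to -0.23 for leukocyte markers. It ran from -0.88 to -0.19 for fibroblast markers and from -0.24 to -4.5e-04 for endothelial markers. Without WT replicate 2, 2 of 7 leukocyte markers were above 0 and 5 below. With all 6 mice, all 7 class II genes tested were below 0, with a median of -0.84. Cd74, which encodes the invariant chain, was at -0.80 ± 0.37 (SE), H2-Ab1 at -0.87 ± 0.41 and H2-Eb1 at -0.84 ± 0.42. All 7 leukocyte markers tested were below 0, with a median of -0.57 and Csf1r, Itgam and Adgre1, which mark myeloid cells, at -0.62 ± 0.46, -0.72 ± 0.50 and -0.88 ± 0.49. The 8 fibroblast markers had a median of -0.48, with the collagen genes Col1a1 at -1.08 ± 0.52, Col3a1 at -1.00 ± 0.60 and Col1a2 at -0.95 ± 0.50. The 10 endothelial markers had a median of -0.16, with Vwf at -0.45 ± 0.14, Cldn5 at -0.44 ± 0.37 and Cdh5 at -0.17 ± 0.16. Muscle fiber markers gave 0 calls of 12 and a median of 0.06, with Ttn at 0.34 ± 0.20, Myh2 at -0.25 ± 0.22 and Tnnc1 at 0.17 ± 0.15. Without WT replicate 1, Ttn was higher in edgeR at an unadjusted p under 0.05, against 6.43% of all genes. The part of the other cell types in the class I values was not tested.

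**Figure D4:**
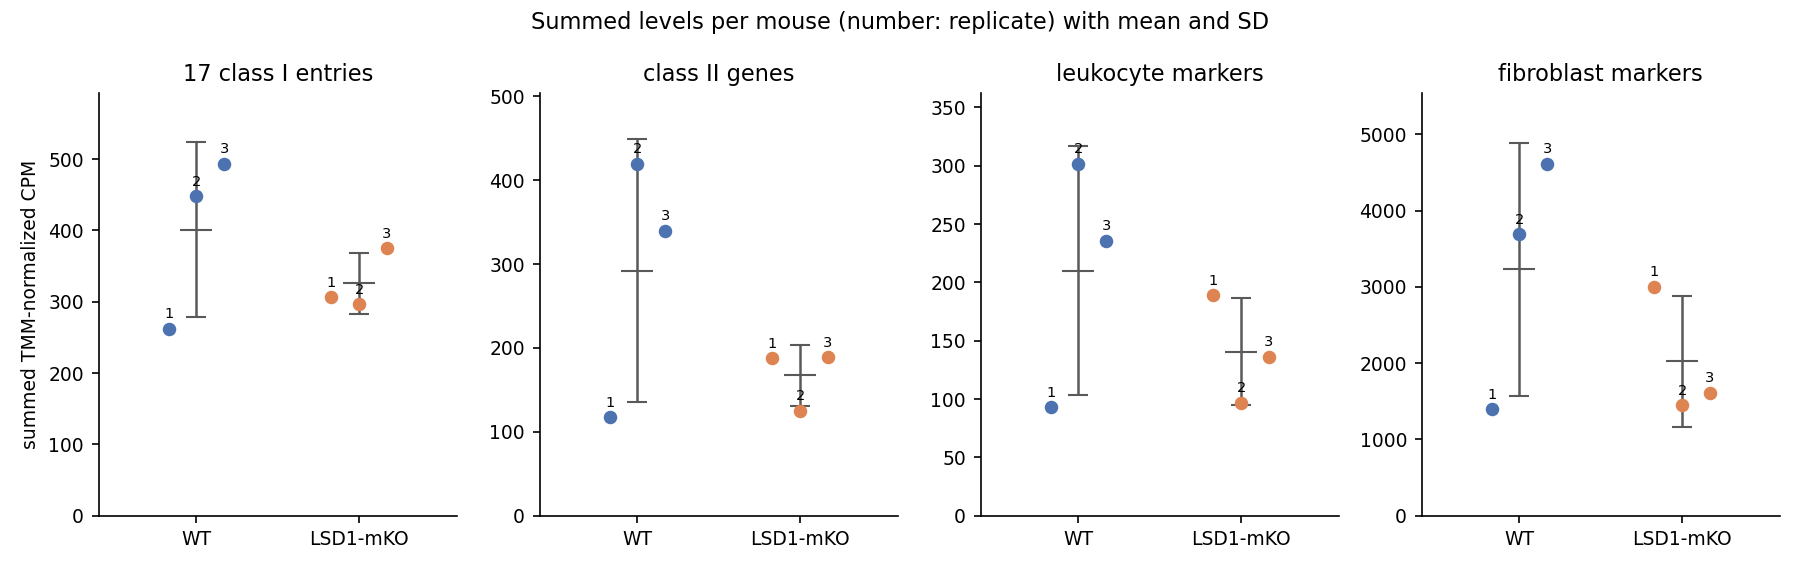
Summed TMM-normalized CPM (y axis, linear and starting at 0) of 17 class I entries, class II genes, leukocyte markers and fibroblast markers in each WT and LSD1-mKO mouse (x axis); points are mice, numbered by replicate, and bars are the mean and SD of 3 mice. In each panel WT replicate 1 is the lowest mouse, and WT replicates 2 and 3 are the highest.

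The genes most like H2-K1 over the 6 libraries were Sash3, Glt8d2, Dgcr8, Ptpdc1 and H2-D1, with Pearson's r of 0.994, 0.987, 0.983, 0.982 and 0.981 on log2 CPM, as a description. Sash3, an adaptor gene of lymphocytes, was low, at 0.362, 1.44 and 1.51 CPM in WT and at 0.518, 0.507 and 0.931 CPM in LSD1-mKO. Dgcr8, which encodes a microRNA processing factor, had the same order with a smaller range, from 17.7 CPM in WT replicate 1 to 22.1 CPM in WT replicate 3.

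On GRCm38, in GENCODE vM21, the members other than H2-L and B2m lie on chromosome 17 within the MHC. H2-K1 lies at chr17:33996017-34000347 on the minus strand, Tap1 at chr17:34187553-34197225 and Tap2 at chr17:34203527-34216321 on the plus strand. H2-D1 lies at chr17:35262730-35267499, H2-Q4 at chr17:35379617-35385290, H2-Q6 at chr17:35424850-35430055 and H2-Q7 at chr17:35439155-35443773, all on the plus strand. H2-T23 lies at chr17:36029773-36032855 on the minus strand, and B2m at chr2:122147686-122153083 on the plus strand. All 9 are annotated as protein coding, and H2-L has no position in this annotation.

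The neighbours of H2-D1 were examined in the same fit. Of 127 listed genes that start within 1 Mb of H2-D1, 72 were tested and 0 passed the adjusted threshold, while at an unadjusted p under 0.05 Egfl8 was higher and Cfb and Nfkbil1 were lower, against 3.52% and 2.88% of all genes. Without WT replicate 1 there were 4 higher, Abcf1, Egfl8, Gnl1 and Hspa1l, and 11 lower, among them H2-D1, H2-Q4 and H2-T23, against 6.43% and 7.98% of all genes, and with the replicate number as a block there were 0. The median log2 fold change of the 72 was -0.12, with 56 below 0, beside -0.02 and 7027 of 12828 over all genes. Without the H2 genes, the 60 tested had a median of -0.10, with 45 below 0. All LSD1-mKO values lay below all WT values in 6 of the 72 and above in 1, Egfl8, beside 6.10% and 6.62% of all genes tested. The 3 with the largest change among those at 5 CPM or more were Cfb, complement factor B, at -0.94 ± 0.34 (SE), and the class II genes H2-Eb1 at -0.84 ± 0.42 and H2-Aa at -0.75 ± 0.41. Cfb was at 5.30, 14.7 and 12.0 CPM in WT and at 6.81, 4.49 and 5.59 CPM in LSD1-mKO, so its groups overlapped. Egfl8, at 0.76 ± 0.30, and Nfkbil1, at -0.39 ± 0.16, were named after their values were seen.

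**Figure D5:**
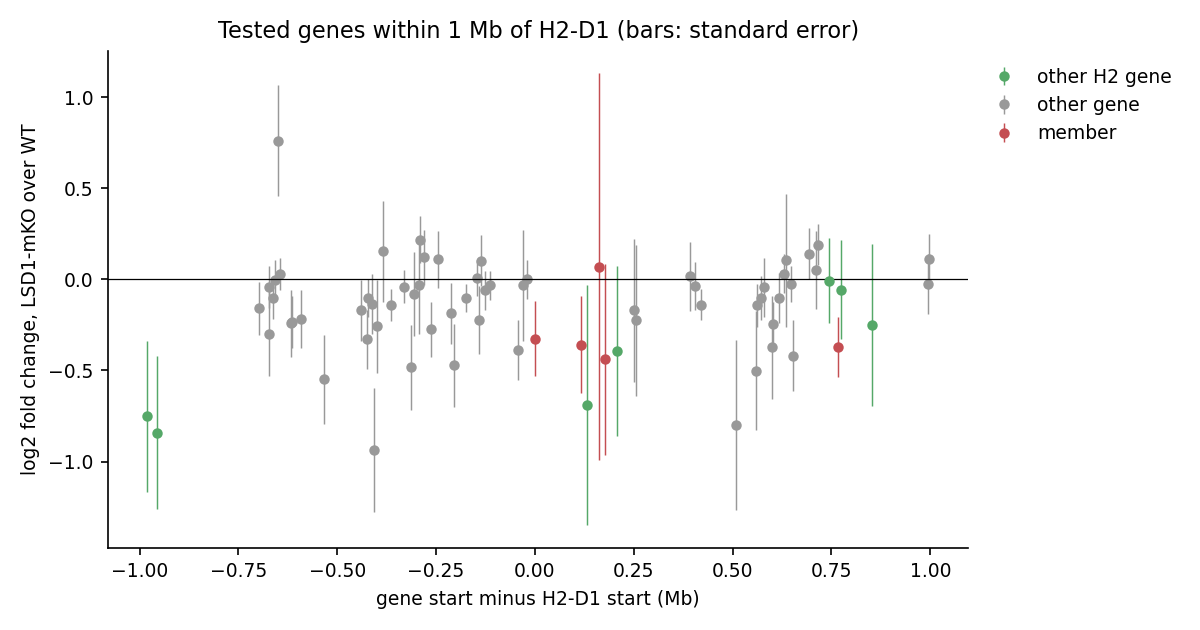
Log2 fold change of LSD1-mKO over WT (y axis) of the 72 tested genes that start within 1 Mb of H2-D1, against the distance of their start from that of H2-D1 in Mb (x axis); points are edgeR estimates, bars their SE, with the genes described here in red, other H2 genes in green and the rest in gray. The median is -0.12, and 56 of the 72 genes lie below 0.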

How the data were processed

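Reads of 75 bases were mapped by the authors with STAR (mm10), and the deposited table holds unnormalized estimated counts for 24411 gene symbols. The counting tool and the annotation are not given in the sources used here. A second table holds the authors' own comparison from DESeq2 (mean, log2 ratio, error and p-values) and was not used.

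The estimated counts were rounded and compared between genotypes with edgeR 4.0.16 in R 4.3.3 (TMM, filterByExpr, quasi-likelihood test), with p-values adjusted by Benjamini-Hochberg across all 12828 genes tested (threshold 0.05). Alternatives were DESeq2 1.42.0, voom from limma 3.58.1, other scalings and filters, the replicate number as a block, and each mouse left out in turn. The tests were tried on simulated data. H2-D1 and H2-L were also summed, and, after seeing the data, H2-Q6 with H2-Q8 and 17 class I entries. The chi-square per gene between libraries was at least 9.39, so none repeated another.

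The genes and lists were chosen with earlier results of these data known. All 10 genes and Kdm1a were named, with up to 3 genes per list, those of largest absolute log2 fold change at a mean level of 5 CPM or more, and the 5 genes most like H2-L and H2-K1. Other genes named were chosen after their values were seen. Log2 CPM for likeness used a prior count of 2. Sequences came from RefSeq and GENCODE vM21.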

Additional observations from a re-analysis of the deposited data

How the results depend on the processing

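The count of class I genes that passed the adjusted threshold upwards was 0 with edgeR and 1 with DESeq2, 1 with limma voom and 1 with edgeR without a filter on low counts, the gene being H2-L each time. The cause was not tested. H2-L was chosen by its levels in these same libraries, so nothing is read from these calls. H2-L could not be tested with at least 10 counts required in every sample. Its fitted log2 fold change ran from 5.76 (voom) to 8.02 (without WT replicate 1); it depends on the prior count and is no bound. Between mice left out in turn, B2m ran from -0.35 to 0.024, turning without WT replicate 3, and H2-Q6 from -1.16 to 1.41, turning without WT replicate 1, without WT replicate 3 and without LSD1-mKO replicate 3. H2-Q6 summed with H2-Q8 gave -0.79. The other 8 genes kept their direction under every alternative that tested them. The list counts and the count near H2-D1 were 0 under each.

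Mice with the same replicate number did not deviate together, with correlations of -0.352, -0.107 and -0.150, so the numbers were not taken to pair the mice. With the replicate number as a block, 0 of the 10 genes were called and 1 gene of all tested was called higher and 0 lower. Several differences of the class I genes, such as -0.14 ± 0.15 (SE) for Tap2, were smaller than their SE. Levels of H2-L, H2-Q6 and H2-Q7 rest on under 100 counts per library.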
